A study of Mus musculus with 17 samples.

Results

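Messenger RNA of 7 clock genes, Arntl, Clock, Npas2, Cry1, Cry2, Nfil3 and Rora, was followed in the mouse cochlea after noise exposure (NE) and after NE with brimonidine. The genes were taken by symbol from the 35285 genes measured, and all 7 were found, each as a single protein-coding gene. RNA sequencing covered 17 libraries, each from 1 wild-type male C57BL/6J mouse aged 8 weeks. The 3 control mice received saline and no noise, and the 7 NE mice heard noise between 8 and 16 kHz for 2 h, at a level of 100 dB SPL. The 7 brimonidine mice heard the same noise and were injected intraperitoneally with brimonidine, an α2-adrenergic receptor agonist, at 1 mg/kg, 3 times: on the day before, the day of and the day after NE. Cochleae were taken 2 days after exposure from mice kept on a light/dark cycle of 12/12 h. Whether the NE mice received saline, and the hour at which each cochlea was taken, are not given in the sources used here. None of the sequenced libraries came from mice given brimonidine without noise.

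The circadian clock of mammalian cells is a transcriptional loop. ARNTL (also called BMAL1) pairs with CLOCK or with its relative NPAS2 and binds E-box sequences, which turns on the Per and Cry genes, Nr1d1, Nr1d2 and output genes such as Dbp. PER and CRY proteins then hold back the activators. In a side loop, ROR proteins activate and NR1D proteins repress Arntl, Npas2, Clock, Cry1 and Nfil3 through ROR response elements, while NFIL3 and the DBP family compete for D-box sequences. As a result Arntl and its partners run in antiphase to Dbp and the Per genes in many tissues, and the cochlea is known to carry such a clock.

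Sequence near the start sites was read from RefSeq for all 7 genes, in 10 windows that ran from 250 bases before to 50 bases after each start (build GRCm38.p6). Each window was searched on both strands for the E-box CACGTG, the ROR response element (AA, any base, T, any base, then GGTCA) and the D-box TTANNTAA, 3 patterns that do not contain each other. Of the 32851 windows of all genes, 7.15% held this E-box, 0.606% the ROR element and 6.0% the D-box. Among the 7 genes there were 2 matches, and both are shown because these genes are targets in the loop outlined above. A match is one of letters, and whether a factor binds there was not measured. The ROR element of Arntl began 27 bases after 1 of its 2 RefSeq starts, at chr7:113207528-113207557 on the plus strand, and the E-box of Cry1 began 60 bases before its start, at chr10:85185097-85185126 on the minus strand. Capitals mark the matched letters.
Arntl, ROR element: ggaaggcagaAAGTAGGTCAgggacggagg
Cry1, E-box: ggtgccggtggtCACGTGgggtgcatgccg

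For Arntl, the gene at the centre of the loop, and Rora, the gene with the widest difference from control below, the 250 bases before the first start are shown as well. Neither stretch held any of the 3 patterns, so neither carries capitals. The Arntl stretch lies at chr7:113207215-113207464 and the Rora stretch at chr9:68653536-68653785, both on the plus strand and outside the exons of GENCODE M21.
Arntl, upstream: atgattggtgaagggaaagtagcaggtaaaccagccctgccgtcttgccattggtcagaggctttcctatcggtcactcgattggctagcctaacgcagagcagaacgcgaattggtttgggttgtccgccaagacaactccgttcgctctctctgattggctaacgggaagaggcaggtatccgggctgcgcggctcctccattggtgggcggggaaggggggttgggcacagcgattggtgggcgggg
Rora, upstream: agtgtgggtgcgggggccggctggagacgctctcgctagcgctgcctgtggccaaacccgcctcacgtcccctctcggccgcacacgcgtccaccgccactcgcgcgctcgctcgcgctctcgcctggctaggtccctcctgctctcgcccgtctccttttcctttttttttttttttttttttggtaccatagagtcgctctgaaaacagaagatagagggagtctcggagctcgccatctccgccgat

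Expression was given as FPKM, fragments counted on a gene scaled by its exon length and by the total of the library. Between 14457733 and 18288854 fragments were counted per library, and these 7 genes held from 58 fragments (Npas2) to 2274 fragments (Rora) in a library. Control 2 stood apart from the other 16 libraries. Its median correlation with them was 0.815 on log2(FPKM + 1), against at least 0.944 for each of the others, and its summed FPKM of 8 neutrophil genes was 9329, against at least 38455. Genes of cerebellar neurons, which a cochlea should lack, summed over a list of 10 to 242, 661 and 256 FPKM in control 1, 2 and 3, to 20.9–31.5 FPKM in the NE libraries and to 21.9–27.1 FPKM in the brimonidine libraries other than brimonidine 5, which reached 88.9 FPKM. None of those 10 genes was at 0 throughout a group, and genes of glia of the central nervous system followed the same order (172–349 FPKM in controls, 38.0–78.6 FPKM in the exposed groups). Defining genes of hair cells (13.3–30.5 FPKM summed over 7 genes) and of supporting and other inner ear cells (572–1442 FPKM over 8 genes) were present in every library. The labels name interstitial cells as the cell type, but these libraries held genes of hair cells, nerve, blood, bone and skeletal muscle as well. In such bulk samples, fewer cells of a type and less RNA per cell cannot be told apart.

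The 7 genes spanned a wide range of levels per kilobase. Over the 17 libraries the mean was 20.7 FPKM for Nfil3, 10.6 for Cry1, 5.22 for Cry2, 3.69 for Clock, 2.81 for Rora, 2.09 for Arntl and 1.32 for Npas2. The order differed between groups: Rora averaged 6.99 FPKM in the controls, above Clock at 5.46, and 1.78 FPKM in NE, below Arntl at 2.09. Within the NE group the ranges of Nfil3 (17.2–24.5 FPKM), Cry1 (8.62–10.8 FPKM) and Cry2 (3.43–4.68 FPKM) did not meet. Clock (2.20–4.17 FPKM) overlapped Cry2 above it and Arntl below it, and Arntl (1.85–2.41 FPKM), Rora (1.21–2.17 FPKM) and Npas2 (0.856–1.98 FPKM) overlapped in turn. In the plot of all libraries the controls were the most scattered group, with control 2 highest for every gene but Nfil3, for which it was lowest.

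**Figure D1:**
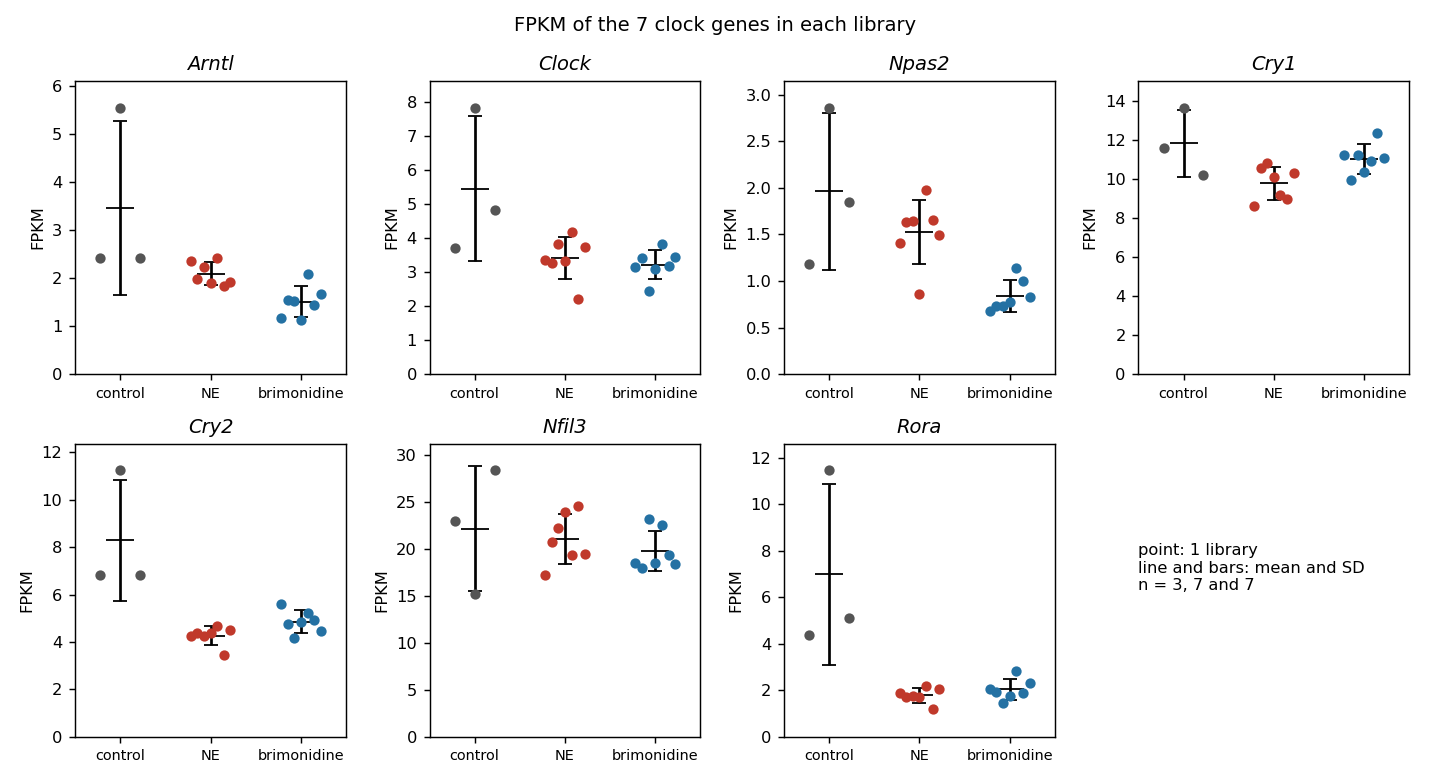
FPKM (vertical axis, from 0) of each gene in the 3 control, 7 NE and 7 brimonidine libraries, 1 point per library, with the mean and SD as a line and bars. Arntl and Npas2 were lowest in the brimonidine group, while Rora and Cry2 lay below every control in both exposed groups.

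The first question was whether noise alone was accompanied by a difference in these genes. Rora and Cry2 fell in NE against control, and the other 5 genes did not pass the test (adjusted p under 0.05 over all genes, limma on log2(FPKM + 1), 7 against 3 libraries). So 2 of 7 genes were called, both lower, beside 12.0% of the 15950 genes tested that were called lower. The median log2 fold change of the 7 genes was -0.46, beside -0.39 for 20 other clock genes and -0.04 over all genes tested. Without control 2 these medians were -0.26, -0.26 and -0.01.

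Rora encodes the ROR receptor that activates Arntl, and it is also a well-known gene of cerebellar Purkinje cells. It measured 4.39, 11.5 and 5.13 FPKM in control 1, 2 and 3. In NE the lowest, median and highest values were 1.21, 1.74 and 2.17 FPKM. Every NE library lay below every control, with a log2 fold change of -1.43 (SE 0.22, adjusted p = 0.00181, limma). Cry2, a repressor that binds the activator pair, measured 6.82, 11.2 and 6.81 FPKM in the controls and 3.43, 4.38 and 4.68 FPKM as the lowest, median and highest values of NE. Its groups did not overlap either, and its log2 fold change was -0.79 (SE 0.14, adjusted p = 0.00377, limma). Without control 2 both calls remained, with log2 fold changes of -1.05 for Rora and -0.57 for Cry2, beside 5.86% of all genes then called lower. With a minimum absolute log2 fold change of 1 added to the call, Rora alone was called among the 7, beside 5.49% of all genes.

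The cerebellar neuron genes moved with these differences. All 10 of them were called lower in NE, with a median log2 fold change of -4.15. The list was chosen with earlier results of these data known, and 6 of the 10 passed the filter in brimonidine against NE. So some were tested only through the high controls. The sum of all 10 was highest in control 2, the control with the most Rora and Cry2. Control 2 also had the highest sums of all 17 libraries for central nervous system glia, spiral ganglion neurons, Schwann cells and hair cells. The same held for supporting cells, red blood cells and osteoblasts, and it had the lowest sums for neutrophils and B cells. The plot of Rora, Cry2 and Nfil3 against that sum shows 3 controls far to the right of 13 of the 14 exposed libraries. The part of those cells in the Rora and Cry2 differences was not tested, and control 1 and control 3 also held at least 242 FPKM of these genes. Genes of other lists were called in NE against control too, beside 12.0% of all genes called lower and 2.12% called higher. Of central nervous system glia 5 of 7 tested genes were called lower, and of spiral ganglion neurons 1 of 7, near the share of all genes. Skeletal muscle had 3 of 5 genes called higher (summed 292–741 FPKM in NE against 142–402 FPKM in the controls). Of 6 glucocorticoid response genes 2 were called higher and 2 lower. Of 8 neutrophil genes 0 were called, at a median log2 fold change of 0.76. The part of these lists in the differences was not tested either.

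**Figure D2:**
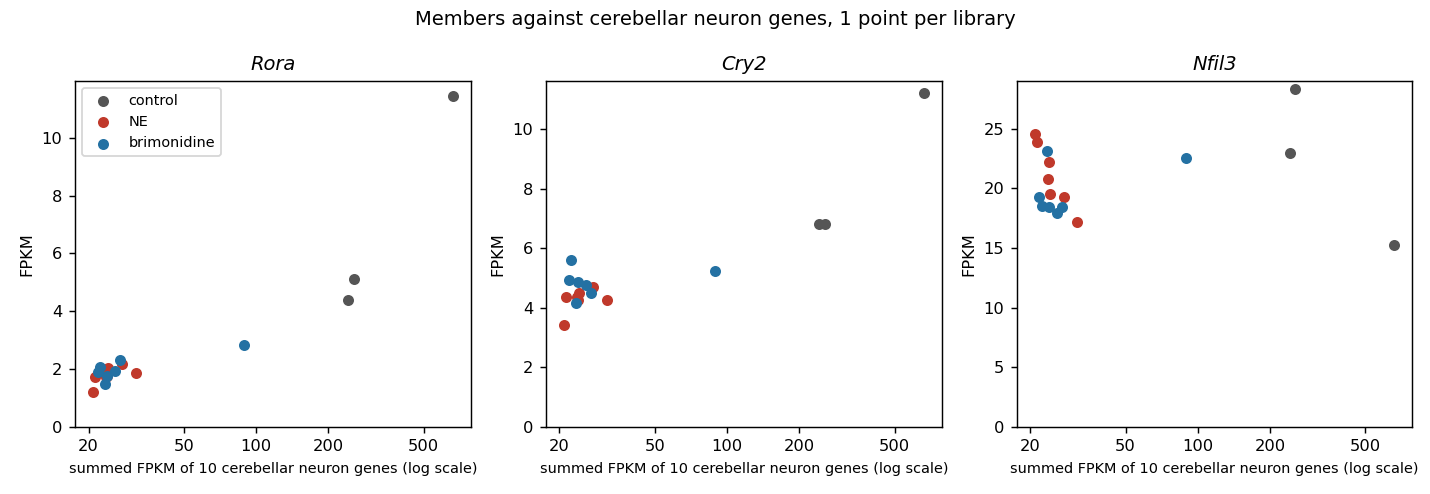
FPKM of Rora, Cry2 and Nfil3 (vertical axes, from 0) against the summed FPKM of 10 cerebellar neuron genes (horizontal axis, log scale) in each of the 17 libraries. Rora and Cry2 were highest in control 2, at a sum of 661 FPKM, where Nfil3 was lowest, and brimonidine 5 is the exposed library at 88.9 FPKM.

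The activators themselves were not called between NE and control in the 2-group fit. With all 17 libraries in 1 model, Arntl (adjusted p = 0.0463), Clock (0.0281) and Cry1 (0.0434) were called lower (limma). With array weights Clock was called lower as well (adjusted p = 0.0150, limma). Arntl measured 2.43, 5.55 and 2.41 FPKM in the controls and 1.85, 1.98 and 2.41 FPKM as the lowest, median and highest values of NE. The groups just failed to meet, the highest NE library lying below the lowest control by under 0.01 FPKM, and the log2 fold change was -0.46 (SE 0.18, adjusted p = 0.112, limma). Without control 2 it was -0.15. An exact two-sided permutation test of Arntl gave p = 0.00833, the smallest value that 7 against 3 libraries can give. In all, the groups did not overlap for Arntl, Cry2 and Rora, 3 of 7 genes, beside 15.0% of all genes tested with NE wholly below control.

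Clock, the partner of ARNTL, measured 3.71, 7.84 and 4.82 FPKM in the controls and 2.20, 3.35 and 4.17 FPKM as the lowest, median and highest values of NE, and 3 NE libraries reached the range of the controls. Its log2 fold change was -0.51 (SE 0.19, adjusted p = 0.0926, limma), and it was -0.26 without control 2 (adjusted p = 0.408, limma) and -0.71 and called without control 1 (adjusted p = 0.0275, limma). Npas2, which can take the place of CLOCK, measured 1.18, 2.86 and 1.84 FPKM in the controls and 0.856, 1.64 and 1.98 FPKM in NE. These groups overlapped widely, and the difference of -0.20 (adjusted p = 0.448, limma) was 0.0057 without control 2 and 0.032 after quantile scaling. Cry1, the repressor that closes the loop late in the cycle, measured 11.6, 13.6 and 10.2 FPKM in the controls and 8.62, 10.1 and 10.8 FPKM in NE (log2 fold change -0.24, adjusted p = 0.117, limma; -0.14 without control 2). Nfil3, the repressor at D-boxes, measured 22.9, 15.2 and 28.4 FPKM in the controls and 17.2, 20.8 and 24.5 FPKM in NE (log2 fold change -0.04, adjusted p = 0.895, limma). Nfil3 had no stable direction, being 0.081 after median ratio scaling and 0.15 without control 3, but -0.40 and called with array weights (adjusted p = 0.00873, limma).

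Of the other clock genes, 20 of 22 had enough signal to be tested, and Rorb and Fbxl21 did not. In NE against control 9 of the 20 fell and 0 rose (0 higher also at an unadjusted p under 0.05, limma), beside 12.0% of all genes called lower and 2.12% called higher. By role, these were the period and related repressors Per1, Per3 and Ciart, the nuclear receptors Nr1d1 and Nr1d2, the D-box activators Dbp and Tef, the ubiquitin ligase part Fbxw11, and Usp2, a deubiquitinase under clock control. Their log2 fold changes ran from -0.99 for Tef to -0.30 for Fbxw11, with -0.64 for Dbp, -0.56 for Nr1d1 and -0.49 for Per3. Per2 was at -0.48 and was not called (adjusted p = 0.162, limma), and it was at -0.16 without control 2. Without control 2, 5 of the 20 were called lower. The calls lost were Per1 (adjusted p = 0.155), Nr1d1 (0.133), Fbxw11 (0.133) and Per3 (0.0913, limma). Per1, Nr1d1 and Fbxw11 also lost their calls after median ratio scaling (adjusted p = 0.0502, 0.0740 and 0.131, limma). Scaling also moved the balance of calls over all genes: 85.0% of calls were lower in NE as deposited, 69.4% after median ratio scaling and 61.2% after quantile scaling, which shifted the median of all genes by 0.11 on the log2 scale.

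The second question was whether brimonidine changed what was seen after noise, and here each group had 7 libraries and control 2 had no part. The data showed 0 of 7 genes past the adjusted threshold in brimonidine against NE, beside 0.00637% of genes tested (1 of 15707, Olfm4). At an unadjusted p under 0.05, 4 of the 7 genes were reached, Npas2 and Arntl on the lower side and Cry1 and Cry2 on the higher side, beside 2.46% of all genes on the lower and 3.30% on the higher side. These 4 are described by their values, since none met the adjusted threshold in this comparison or in any of its 24 alternatives, limma's voom on whole fragments among them.

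Npas2 measured 0.856, 1.64 and 1.98 FPKM as the lowest, median and highest values of NE and 0.672, 0.771 and 1.14 FPKM in brimonidine. All 7 brimonidine libraries lay below the NE mean and 5 lay below every NE library, the overlap coming from NE 4, the lowest NE library at 0.856 FPKM. The brimonidine mean of 0.839 ± 0.168 FPKM (SD, n = 7) was 0.550 times the NE mean of 1.52 ± 0.344 FPKM (SD, n = 7). On log2(FPKM + 1) the difference was -0.45 (SE 0.10), with limma's p = 0.00033 and adjusted p = 0.262, and with p = 0.00175 in an exact two-sided permutation test. The adjusted p ran from 0.0884, without NE 4, to 1.0 over the alternatives.

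Arntl measured 1.85, 1.98 and 2.41 FPKM as the lowest, median and highest values of NE and 1.12, 1.52 and 2.09 FPKM in brimonidine. Of the 7 brimonidine libraries, 6 lay below every NE library, and the exception was brimonidine 5 at 2.09 FPKM. The brimonidine mean of 1.51 ± 0.323 FPKM (SD, n = 7) was 0.722 times the NE mean of 2.09 ± 0.235 FPKM (SD, n = 7). The log2 difference was -0.31 (SE 0.08), with limma's p = 0.00208 and adjusted p = 0.518, and with p = 0.0035 in an exact two-sided permutation test. Brimonidine 5 was also the brimonidine library with the highest Npas2, Clock and Rora and with the raised cerebellar genes. Without it the log2 differences were -0.36 for Arntl (adjusted p = 0.313, limma) and -0.49 for Npas2 (adjusted p = 0.296, limma).

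For Clock the difference was smaller than for Arntl and Npas2, in the same direction. None of these genes was called, and the contrast between them was not tested. Clock measured 2.20, 3.35 and 4.17 FPKM as the lowest, median and highest values of NE and 2.45, 3.17 and 3.82 FPKM in brimonidine, with every brimonidine value inside the NE range. The log2 difference was -0.06 (SE 0.10, adjusted p = 0.970, limma). The ratio of Npas2 to Clock, both in FPKM, therefore ran from 0.257 to 0.752 in NE and from 0.214 to 0.315 in brimonidine, and from 0.319 to 0.382 in the controls. These ratios are given as a description, with no test.

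Both cryptochromes lay on the other side. Cry1 measured 8.62, 10.1 and 10.8 FPKM as the lowest, median and highest values of NE and 9.92, 11.1 and 12.4 FPKM in brimonidine, and all 7 brimonidine libraries lay above the NE mean. Its log2 difference was 0.16 (SE 0.06, adjusted p = 0.733, limma), with p = 0.0163 in an exact two-sided permutation test. Cry2 measured 3.43, 4.38 and 4.68 FPKM in NE and 4.15, 4.85 and 5.61 FPKM in brimonidine, and 6 of 7 brimonidine libraries lay above the NE mean. The log2 difference of Cry2 was 0.15 (SE 0.06, adjusted p = 0.851, limma; exact permutation p = 0.0239). The low NE value of 3.43 FPKM came from NE 6, the NE library with the fewest fragments and the highest sum of neutrophil genes (63096 FPKM). Exact tests were run on 29 clock genes in this comparison, the 7 genes and 22 others, and their p values are unadjusted.

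For Rora and Nfil3 the exposed groups could not be separated at this spread. Rora measured 1.21, 1.74 and 2.17 FPKM as the lowest, median and highest values of NE and 1.47, 1.91 and 2.83 FPKM in brimonidine (log2 difference 0.12, SE 0.10, adjusted p = 0.903, limma). Nfil3 measured 17.2, 20.8 and 24.5 FPKM in NE and 18.0, 18.5 and 23.2 FPKM in brimonidine (log2 difference -0.08, SE 0.08, adjusted p = 0.929, limma). The NE and brimonidine ranges overlapped for all 7 genes, so 0 of 7 were free of overlap, beside 0.140% of all genes tested. The direction of all 7 genes was the same in each of the 24 alternatives.

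The rest of the clock pathway was set beside these values. Of the 20 other clock genes tested, 0 were called by limma in brimonidine against NE, beside 0.00637% of all genes. At an unadjusted p under 0.05 (limma) there were 7, all with higher means in brimonidine, beside 3.30% of all genes on the higher side. They were Dbp (log2 difference 0.81, SE 0.15, adjusted p = 0.172, limma), Tef (0.48), Per2 (0.44), Per3 (0.43), Nr1d2 (0.38), Ciart (0.30) and the cell cycle kinase Wee1 (0.15). Nr1d1 was at 0.19 (adjusted p = 0.901, limma). Of the 20, 17 were above 0 (85.0%), beside 57.7% of all genes tested, and their median was 0.08, beside 0.01 over all genes. The plot of 27 clock genes puts Npas2 and Arntl at the lower end and Dbp at the upper end.

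**Figure D3:**
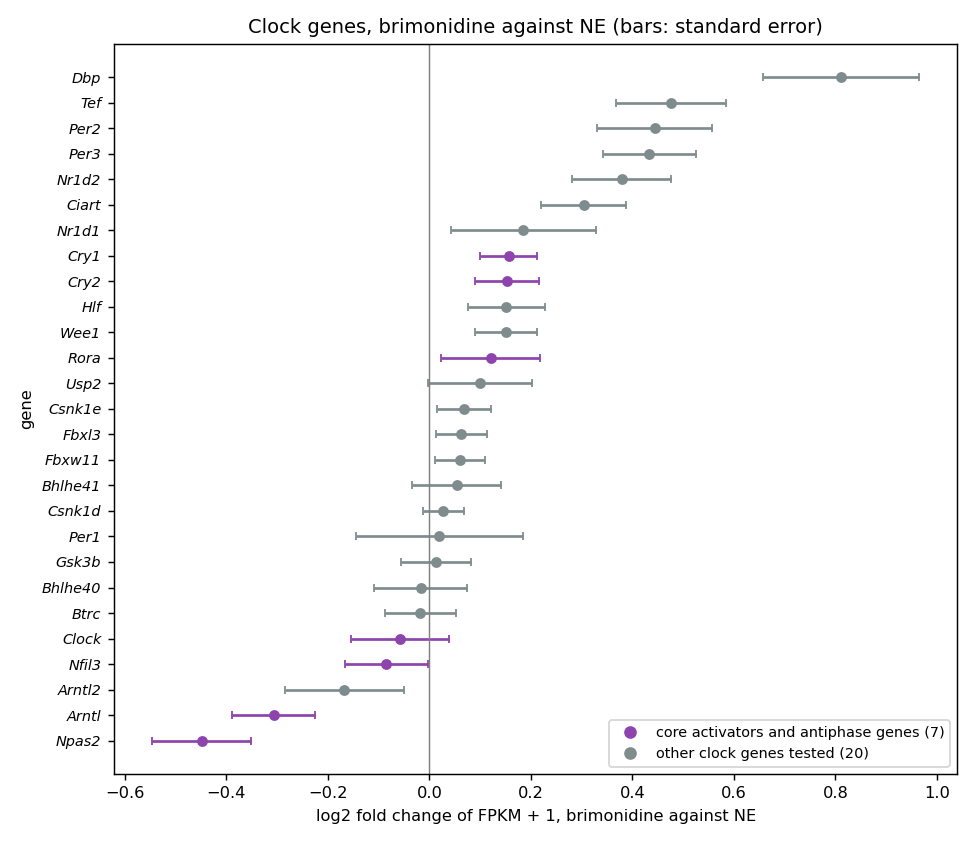
Log2 fold change of FPKM + 1 (horizontal axis) between 7 brimonidine and 7 NE libraries for the 27 clock genes tested, ordered by value, with bars for the standard error. The 7 genes described here are in purple; Npas2 (-0.45) and Arntl (-0.31) stand lowest, Dbp (0.81) highest, and none passed an adjusted p of 0.05.

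Arntl and its antiphase target Dbp, a D-box activator, were compared within each library. The ratio of Arntl to Dbp, both in FPKM, was 0.478–1.38 in the controls, 0.565–1.32 in NE and 0.139–0.495 in brimonidine, so that the NE and brimonidine ranges did not meet. The ratio of Arntl to Per3, a period gene, was 0.396–0.608 in NE and 0.166–0.381 in brimonidine, again without overlap. These ratios are a description, chosen after the values of both genes had been seen, and carry no test.

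**Figure D4:**
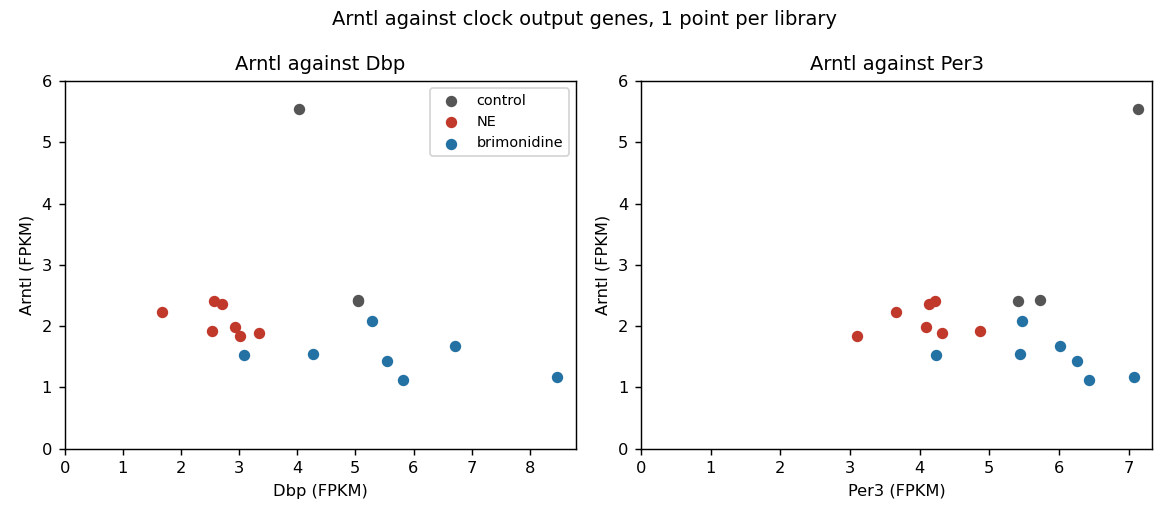
Arntl (vertical axes, FPKM) against Dbp and Per3 (horizontal axes, FPKM), 1 point per library for 3 control, 7 NE and 7 brimonidine libraries. Each single gene overlaps between NE and brimonidine, while the ratio does not, with an Arntl to Dbp ratio of 0.139–0.495 against 0.565–1.32, and control 2 stands alone at an Arntl of 5.55 FPKM.

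Relations between animals of 1 group did not pass the test. Within NE and within brimonidine, each with 7 libraries, Arntl was correlated on log2(FPKM + 1) with 10 other clock genes, and 0 of the 20 relations had an adjusted p under 0.05 in exact permutation tests (lowest adjusted p 0.494 for Pearson's r and 0.440 for Spearman's rho; at an unadjusted p under 0.05 there were 0 by Pearson's r and 2 by Spearman's rho, with Nfil3 in NE and with Clock in brimonidine). With Npas2, r was 0.45 in NE (rho 0.25, exact permutation p = 0.316 and 0.595) and 0.70 in brimonidine (rho 0.46, exact permutation p = 0.1 and 0.302). Without the 2 libraries farthest from the median of Arntl, these r values were 0.35 and 0.34. Other r values moved further, such as Cry1 in NE from -0.33 to 0.75, Dbp in NE from -0.50 to -0.91, Cry2 in brimonidine from -0.17 to -0.84 and Rora in brimonidine from 0.63 to -0.00055. After subtraction of the group means, the genes most like Arntl over the 14 exposed libraries were Amt (r = 0.91), Sar1a (r = 0.91) and Gm12406 (r = 0.90), and the most opposed were Timeless (r = -0.91), Fam160b2 (r = -0.85) and Golga2 (r = -0.83), out of 14652 genes. Rora (r = 0.61), Npas2 (r = 0.51) and Clock (r = 0.50) lay below these. All of these values come from the same libraries, share their depth and are given as a description.

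The third comparison set brimonidine beside control. It shares its controls with the first comparison and its brimonidine libraries with the second, so it is not independent of either, just as the first 2 share the NE libraries. Of the 7 genes 5 fell, beside 12.3% of the 15947 genes tested that were called lower, and the median log2 fold change of the 7 was -0.63, beside -0.22 for the 20 other clock genes and -0.03 over all genes. Without control 2 these medians were -0.42, -0.10 and -0.0042. Rora (log2 fold change -1.31, SE 0.23, adjusted p = 0.00378) and Cry2 (-0.63, SE 0.14, adjusted p = 0.0116) were called, and all 3 activators were called as well (limma). The activators were Npas2 (-0.65, SE 0.16, adjusted p = 0.0229), Arntl (-0.77, SE 0.20, adjusted p = 0.0273) and Clock (-0.57, SE 0.17, adjusted p = 0.0438). Over 20 alternatives, Npas2 was called in 17, Arntl in 14 and Clock in 8. Npas2 passed the filter through the controls, since brimonidine 5 alone of its group reached 1 FPKM. Without the filter, 3 of the 7 genes were called.

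In FPKM, Npas2 reached 1.14 at most in brimonidine against 1.18 in the lowest control, and Arntl reached 2.09 against 2.41. For Clock the highest brimonidine library (3.82 FPKM) passed the lowest control (3.71 FPKM). Arntl, Npas2, Cry2 and Rora did not overlap between the groups, 4 of 7 genes, beside 14.3% of all genes with brimonidine wholly below control. Without control 2, only Rora (-0.93) and Cry2 (-0.42) remained called among the 7, beside 7.45% of all genes called lower. In that fit Arntl was at -0.46 (adjusted p = 0.0681, limma), Npas2 at -0.44 (adjusted p = 0.0848, limma) and Clock at -0.32 (adjusted p = 0.141, limma). With all libraries and a minimum absolute log2 fold change of 1, Rora alone was called, beside 5.56% of all genes. Here too the cerebellar neuron genes moved along, with 10 of 10 called lower (median -3.92), some of them tested only through the high controls. Of the other lists, 6 of 7 genes of central nervous system glia, 3 of 7 of spiral ganglion neurons and 2 of 6 of Schwann cells were called lower, beside 12.3% of all genes. Of 6 glucocorticoid response genes 2 were called higher and 2 lower, beside 3.47% of all genes called higher. Of 8 neutrophil genes 0 were called, at a median log2 fold change of 0.78. The part of these in the result was not tested.

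Cry1 (log2 fold change -0.09, adjusted p = 0.508, limma) and Nfil3 (-0.12, adjusted p = 0.608, limma) were not called in brimonidine against control, and both changed sign in some of the alternatives. With array weights Nfil3 was at -0.49 and was called (adjusted p = 0.000995, limma). As a description, the ratio of Cry1 to Cry2 in FPKM was 1.21–1.70 in the controls, 1.96–2.62 in NE and 2.00–2.70 in brimonidine. Of the other clock genes, 2 of 20 fell, Usp2 (-0.84) and Per1 (-0.79), and 0 rose, beside 12.3% of all genes called lower and 3.47% called higher (limma; at an unadjusted p under 0.05, 1 of the 20 was higher, Wee1). Dbp (0.17), Nr1d1 (-0.37), Per2 (-0.03) and Per3 (-0.05) were not called, and the last pair changed sign with the scaling. Over all genes 78.0% of the calls were lower in brimonidine, which became 63.5% after median ratio scaling and 53.0% after quantile scaling.

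**Figure D5:**
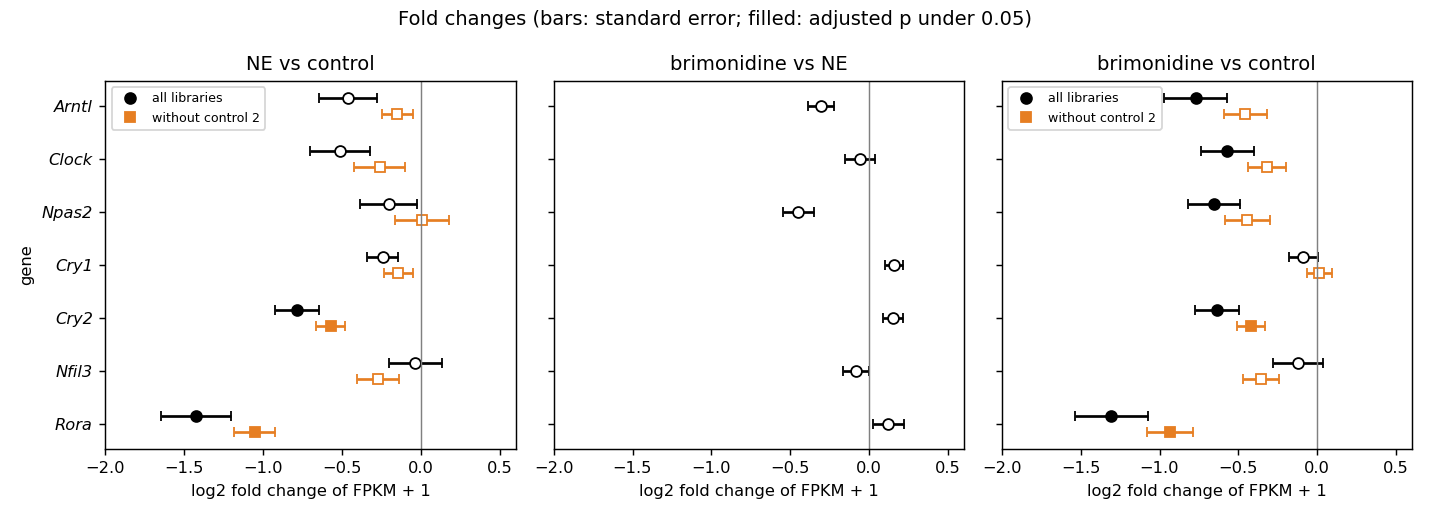
Log2 fold change of FPKM + 1 (horizontal axes) for each of the 7 genes in the 3 comparisons, with bars for the standard error, filled symbols for an adjusted p under 0.05, and orange squares for the fit without control 2. Rora and Cry2 stay filled without control 2, and Arntl, Clock and Npas2 in brimonidine against control do not.

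Some of the measured genes share their place with another gene. On the opposite strand, Gm45355 overlaps Arntl, D930015M05Rik overlaps Cry2 and Gm15511 overlaps Rora, with at most 0.771, 1.55 and 0.409 FPKM in any library. The kit kept the strand, but the strand setting used in counting is not given in the sources used here, so reads of such a pair may have been counted to either gene. By the annotation of the deposited file (mm10), the genes lie at chr7:113207465-113314126 (Arntl, ENSMUSG00000055116), chr5:76209868-76304792 (Clock, ENSMUSG00000029238), chr1:39193731-39363236 (Npas2, ENSMUSG00000026077), chr10:85131700-85185064 (Cry1, ENSMUSG00000020038), chr2:92403646-92434043 (Cry2, ENSMUSG00000068742), chr13:52967209-52981073 (Nfil3, ENSMUSG00000056749) and chr9:68653786-69388246 (Rora, ENSMUSG00000032238).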

How the data were processed

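RNA sequencing libraries of 17 cochleae were analysed, grouped by their labels. The authors deposited FPKM values for 35285 genes, made with a stranded TruSeq mRNA kit, a NovaSeq instrument and, per their processing notes, Trimmomatic, HISAT2, HTSeq and Cufflinks on mm10, with no versions given. Multiplied by merged exon length (GENCODE M21, or a length solved from the values for 2605 genes), the values of 35028 of 35029 genes above 0 were whole fragments within 0.02. Testing covered genes that reached 1 FPKM in 3 or more libraries of the pair of groups, in 2-group models with limma 3.58.1 (R 4.3.3; lmFit, eBayes with a trend) on log2(FPKM + 1). This scale understates the change of low genes. Calls had a Benjamini-Hochberg adjusted p under 0.05 over all genes tested. A minimum log2 fold change of 1 (the study's limit) was an alternative. Single genes were also compared by exact two-sided permutation tests of group means (scipy 1.17.1). P values measure the spread between mice. The members, the 22 other clock genes and the marker lists were chosen with earlier results of these data known, and 1 further clock gene is not reported here. All members were described, with other clock genes named where they passed a threshold or were Dbp, Nr1d1, Per2 or Per3. On simulated data without an outlying library, the model recovered known changes of 2 on the log2 scale, set in 200 genes. Smaller changes and genes of low FPKM, such as Npas2, were not among them. Alternatives were a pseudocount of 0.1, no filter, 3 rescalings, array weights, robust eBayes, a single model of all 17 libraries, the replicate number as a block, voom on whole fragments, and each library left out. Promoter and site sequences are from RefSeq.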

Additional observations from a re-analysis of the deposited data

Results flagged for a closer look

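Cry2 in NE 6, at 3.43 FPKM, lay far below the other 6 NE libraries, which held 4.25–4.68 FPKM. Its gap to the nearest library was 0.651 of the range of the group, above the limit of 0.568 for 7 samples in Dixon's test. Of 14 sets of values tested in this way (7 genes in NE and in brimonidine) 1 was marked, and chance marks about 1 in 20. NE 6 was also the lowest NE library for Rora, Clock and Arntl and had the fewest fragments of its group, 15769236. Its summed FPKM of neutrophil genes was 63096, against 38455–43559 in the other NE libraries. Its sum for central nervous system glia, 46.0 FPKM, was the lowest in NE. The part of these traits in the low Cry2 value was not tested.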

How the results depend on the processing

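In NE against control, the 2 members called became 1 with a minimum log2 fold change of 1, 5 with all 17 libraries in 1 model, 4 with array weights and 0 with the replicate block, and stayed at 2 to 3 with each library left out. The 9 other clock genes called became 0 with the minimum fold change, 0 with the replicate block and 5 without control 2, with a range of 5 to 12 over libraries left out. In brimonidine against NE, 0 members were called in every alternative, the replicate block among them, and 1 other clock gene (Dbp) was called with array weights and without brimonidine 3 (range 0 to 1). In brimonidine against control, the 5 members called became 1 with the minimum fold change, 3 without the filter, 6 with array weights (Nfil3 added), 0 with the replicate block, and 2 to 5 with a library left out: 2 without control 2 and 3 without control 3 or without brimonidine 1, 4 or 6. The 2 other clock genes called became 0 with the minimum fold change, 7 in 1 model, 8 with array weights (2 higher, 6 lower), 0 with the replicate block and 2 to 6 with a library left out (6 without control 1, 1 higher and 5 lower). Against control, the replicate block uses only the libraries whose number occurs in both groups, 3 pairs, so its counts come from a far smaller comparison. The causes of the other moves were not tested. Reversed directions in NE against control were Npas2 (0.032 after quantile scaling, -0.41 to 0.0057 with a library left out, positive without control 2) and Nfil3 (0.081 after median ratio scaling, -0.27 to 0.15 with a library left out, positive without control 1, control 3 or NE 1). In brimonidine against control they were Cry1 (0.011 after median ratio scaling, 0.076 with array weights, -0.18 to 0.013 with a library left out, positive without control 2), Nfil3 (-0.36 to 0.070, positive without control 3), Per3 (0.037 after median ratio scaling, 0.084 after quantile scaling, 0.13 with array weights, -0.12 to 0.048 with a library left out) and Per2 (0.062, 0.094 and 0.26 under those settings, -0.22 to 0.28 with a library left out).

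The replicate numbers did not pair the libraries: deviations of same-numbered libraries correlated between -0.23 and 0.08. With the block the log2 fold changes in NE against control were -1.42 for Rora and -0.78 for Cry2. Under it, calls over all genes were 0, 0 and, in brimonidine against control, 2 higher and 234 lower. No correlation passed the threshold after median ratio scaling, and with the 2 farthest libraries left out 5 libraries are too few for the count to say anything. Npas2, near 1 FPKM and with as few as 58 fragments, had the lowest counts among the members, and with 3 controls no single-gene exact test can go below 0.00833.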
